A study of Mus musculus with 2 samples.

Results

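The genes described here are the keratins, the S100a calcium-binding proteins, the small proline-rich (Sprr) proteins and the cornified envelope genes Ivl, Lor, Evpl, Ppl and Tgm1. They were taken by name from the protein-coding genes of the count table, which gave 88 genes of 52636: 54 keratins, 14 S100a genes, 15 Sprr genes and the 5 envelope genes. The 2 libraries hold RNA from Hepa1-6, an established line of mouse hepatocellular carcinoma whose strain is labelled C57bl/6 mice. The IRF8 line carried the lentivirus labelled IRF8-overexpression-GFP-Puro, for the transcription factor IRF8, and the vector line carried the one labelled vector control-GFP-Puro. Both lines had been exposed to virus for 24 h, carried GFP and were selected in 2 µg/ml puromycin, and the sources used here do not give the promoter of the transgene or say whether a line is a clone or a pool.

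Each group had 1 library, so nothing here could be checked against replicates and there are no p-values. Counted reads totalled 20042660 in IRF8 cells and 18118017 in vector cells. Levels are CPM, the counts scaled to a common library size with TMM factors, and every interval is an exact 95% interval for counting error alone. A gene was measured at a mean of at least 1 CPM, and it is called higher or lower when its ratio, IRF8 over vector, was at least 2-fold from 1 and the interval excluded 1. The targeted gene, Irf8, had 1486 counts in IRF8 cells and 1010 in vector cells, a ratio of 1.22 (1.13 to 1.32), which is under 2-fold. The sources used here do not give the transgene sequence, so the counts do not check the overexpression label, and IRF8 cells means the library that carries this label throughout. Of 15 hepatocyte markers, 10 were measured, with Alb, Afp and Trf lower and 0 higher. Over all measured protein-coding genes 3.56% were lower and 3.28% higher. The whole hepatocyte list summed to 3569 CPM in IRF8 cells and 5943 CPM in vector cells. Apoe, which is not called, supplied 2901 CPM of that sum in IRF8 cells and 4740 CPM in vector cells. The part of this in the ratios of the simple keratins was not tested. The unmeasured markers of the list did not share a direction. Ttr and Cps1 had 0 counts in IRF8 cells and 2 each in vector cells, and Tat had 4 and 5. Apoa1 had 15 counts in IRF8 cells and 3 in vector cells, a ratio of 4.15 (1.17 to 22.4), and Serpina1a had 6 and 1.

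Keratins are the intermediate filament proteins of epithelia, and each filament is built from pairs of a type I and a type II keratin. Simple epithelia such as hepatocytes use Krt8 with Krt18, and ducts add Krt7 and Krt19, whereas stratified (squamous) epithelia use Krt5 with Krt14 in the basal layer and Krt1 with Krt10 above it. In the outer epidermis, transglutaminases such as Tgm1 cross-link involucrin, loricrin, the Sprr proteins and the plakins into the cornified envelope. The S100 proteins are small calcium sensors, many of them encoded beside the Sprr and envelope genes in the epidermal differentiation complex. Liver cells are not known for cornification, although several S100 and Sprr genes are induced by stress or injury in tissues outside the skin.

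The Krt8 and Krt18 pair and a few S100a and Sprr genes made up nearly all of the reads of the set. Of the 88 genes, 22 were measured, 38 had counts but stayed below 1 CPM on average and 28 had 0 counts in both libraries. Lower in IRF8 cells were 5 genes: Sprr1b, Krt76, S100a7a, Ivl and S100a16. Krt80 was the 1 higher gene. These are 22.7% and 4.55% of the 22 measured genes, beside 3.64% of all 12468 measured genes lower and 4.27% higher, 7.91% in either direction. Among the 11131 measured protein-coding genes 3.56% were lower, 3.28% were higher and 6.84% were either. The 532 higher and 454 lower genes of the whole table became 684 and 351 with scaling by total counts, and 396 and 547 with the trend over expression level removed. Krt76, S100a7a and Ivl were above 1 CPM in vector cells alone and entered the measured set through that library, so they had to differ to some degree, and the set had been proposed with its ratios known. The count is a description for both reasons. The ratio was below 1 for 17 of the 22 measured genes, and their median log2 ratio was -0.47, against 50.3% of genes below 1 and a median of -0.00 for all measured protein-coding genes. Together the 88 genes took 0.677% of all counts (0.674% to 0.681%) in IRF8 cells and 0.788% (0.784% to 0.792%) in vector cells. As these are bulk libraries, fewer cells expressing a gene and less RNA per cell cannot be told apart.

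**Figure D1:**
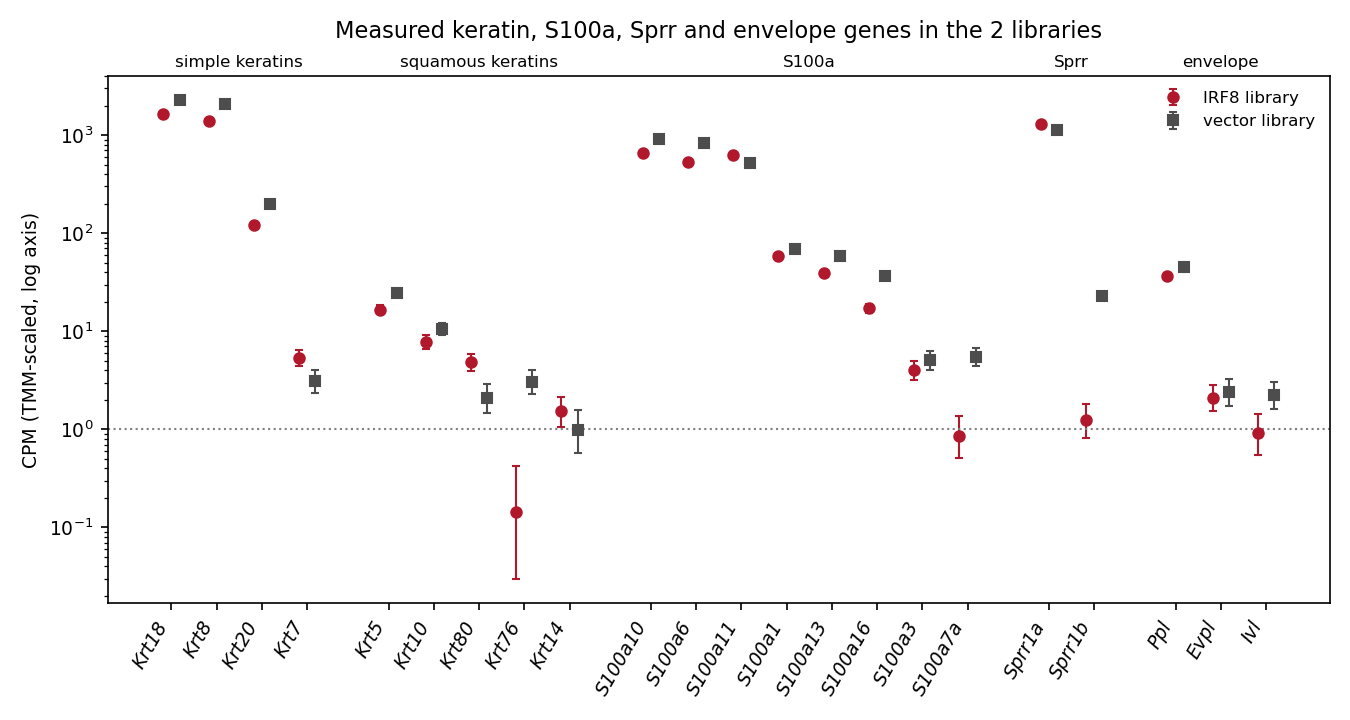
Level of each of the 22 measured genes in CPM on a log axis, IRF8 library (red circles) left of vector library (grey squares), with exact Poisson 95% intervals of counting error. The dotted line is 1 CPM. Sprr1b stood at 1.24 CPM in IRF8 cells and 23.0 CPM in vector cells, while Sprr1a stood above 1000 CPM in both.

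Among simple epithelial keratins, Krt18 and Krt8 were by far the most counted. Krt18, the type I partner, had 34258 counts in IRF8 cells and 39480 in vector cells, which equal 1638 CPM (1621 to 1656) and 2273 CPM (2251 to 2296). Its ratio was thus 0.721 (0.710 to 0.731). Krt8, the type II partner encoded next to it on chromosome 15, had 29365 counts in IRF8 cells and 35766 in vector cells, or 1404 and 2060 CPM, a ratio of 0.682 (0.671 to 0.692). Both intervals excluded 1 and neither ratio reached 2-fold, so neither gene is called. Per kilobase of listed gene length, the levels were 1170 CPM for Krt18 and 778 CPM for Krt8 in IRF8 cells, and 1624 and 1141 CPM in vector cells. Krt8 made up 46.2% of their joint counts (45.8% to 46.5%) in IRF8 cells and 47.5% (47.2% to 47.9%) in vector cells, intervals that do not overlap. Krt8 shares 35.5% of the 32-base words of its longest transcript with other genes, mostly a processed pseudogene, and Krt18 shares 10.4%. Reads from those stretches cannot be placed with certainty, although these are shares of sequence and not of counts. The pseudogene, Krt8-ps, had 232 counts in IRF8 cells and 117 in vector cells.

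Krt20, a type I keratin known from gut and urothelium, had 2533 counts in IRF8 cells and 3409 in vector cells, or 121 and 196 CPM. Its ratio of 0.617 (0.586 to 0.650) was the lowest of the measured simple keratins and is also under 2-fold. Krt7, a type II keratin of ducts, ran the other way, with 112 counts in IRF8 cells and 54 in vector cells, a ratio of 1.72 (1.23 to 2.43) that does not reach the size rule. Krt19, the type I keratin most used as a bile duct marker, was almost absent, with 1 count in IRF8 cells and 6 in vector cells, and Krt23 had 0 in both. None of the 6 simple keratins is called, with 4 of them measured.

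Keratin genes lie in clusters on chromosomes 11 and 15, and the chromosomes themselves differed. On chromosome 15, which holds Krt8, Krt18, Krt7 and Krt5, the median log2 ratio over 458 measured protein-coding genes was -0.31. On chromosome 11, which holds Krt20, Krt10 and Krt14, it was 0.13 over 941 genes. With each chromosome's median removed, the ratio was 0.896 for Krt18, 0.848 for Krt8 and 0.565 for Krt20, all still below 1. Krt7 reached 2.14 (1.53 to 3.02) under that setting and then counts as higher.

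Squamous keratins were present at a small fraction of the simple keratin level, with 1 gene higher and 1 lower in IRF8 cells. All 21 together had 667 counts in IRF8 cells and 775 in vector cells, or 31.9 and 44.6 CPM, a summed ratio of 0.715 (0.643 to 0.794). The 6 simple keratins together had 66269 and 78715 counts, a summed ratio of 0.699 (0.692 to 0.706). The interval of the squamous sum therefore contains the ratio of the simple sum. Simple keratins made up 98.95% of keratin counts (98.87% to 99.03%) in IRF8 cells and 98.98% (98.91% to 99.05%) in vector cells, and squamous keratins 0.996% (0.922% to 1.07%) and 0.975% (0.907% to 1.05%). Per kilobase the simple share was 99.19% in IRF8 cells and 99.23% in vector cells. These shares need no scaling between libraries, and a difference between them was not detectable at this depth.

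The basal keratin Krt5 led the squamous group, with 346 counts in IRF8 cells and 428 in vector cells, or 16.5 CPM (14.8 to 18.4) and 24.6 CPM (22.4 to 27.1). Its ratio was 0.671 (0.581 to 0.775), close to that of Krt8. Of the 32-base words of its transcript, 15.4% occur in another gene, mostly Krt6a, so reads from those stretches cannot be placed with certainty. This is a share of sequence and not of counts, and Krt6a itself had 1 count in IRF8 cells and 9 in vector cells. Krt14, its usual type I partner, had 32 counts in IRF8 cells and 17 in vector cells, a ratio of 1.56 (0.843 to 3.00) whose interval includes 1. Krt14 shares 28.2% of its words with other genes and was above 1 CPM in IRF8 cells alone. Per kilobase of listed length, Krt5 stood at 7.56 CPM in IRF8 cells and 11.3 CPM in vector cells, and Krt14 at 0.870 and 0.557 CPM. Of the joint counts of Krt5 and Krt14, Krt14 made up 8.47% (5.86% to 11.7%) in IRF8 cells and 3.82% (2.24% to 6.05%) in vector cells. The suprabasal keratin Krt10 had 163 counts in IRF8 cells and 183 in vector cells, a ratio of 0.740 (0.595 to 0.919), and its usual partner Krt1 had 2 counts in each. Per kilobase of listed length, Krt10 stood at 3.69 CPM in IRF8 cells and 4.98 CPM in vector cells, and Krt1 at 0.0391 and 0.0471 CPM, so the type I gene of this pair was far above its type II partner in both.

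Krt76 and Krt80, both type II keratins, were the 2 called keratins and differed in opposite directions. Krt76, known from the palate and other oral epithelium, had 3 counts in IRF8 cells and 53 in vector cells, or 0.143 CPM (0.0296 to 0.419) and 3.05 CPM (2.29 to 3.99). This is a ratio of 0.0470 (0.00940 to 0.145), or 21.3-fold lower (6.90 to 106), and IRF8 cells lay at the level of a few reads. Krt76 lies at chr15:101884351-101892920 and Krt80 at chr15:101349571-101370125, both on the minus strand of mm10. Krt80, an epithelial keratin that is not tied to a single tissue, had 102 counts in IRF8 cells and 36 in vector cells, or 4.88 CPM (3.98 to 5.92) and 2.07 CPM (1.45 to 2.87). Its ratio was 2.35 (1.59 to 3.54), and 1.91 with 1 added to each CPM, which ends the call. Gene models on the opposite strand overlap a small part of the exons of both genes, and without a stated strand setting their reads cannot be told apart there. The model over Krt76 had 0 counts in both libraries.

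The other squamous keratins were too low to measure. Those with counts were Krt16 (7 in IRF8 cells, 11 in vector cells), Krt15 (3 and 8), Krt42 (2 and 7), Krt6a (1 and 9) and Krt79 (0 and 10), with Krt12, Krt24, Krt77, Krt78, Krt13 and Krt17 at no more than 3 counts in either library. Krt79, a keratin of hair follicle openings and sebaceous ducts, had a ratio whose counting interval reached up to 0.370. Krt6a shares 62.5% of its words with other genes, chiefly Krt6b, which had 0 counts. Summed after their values were seen, the 16 unmeasured squamous keratins had 21 counts in IRF8 cells and 58 in vector cells, a ratio of 0.301 (0.173 to 0.503). Of the 12 with counts, 1 had more counts in IRF8 cells and 8 had more in vector cells, while Krt1, Krt12 and Krt77 had equal counts.

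Hair and follicle keratins were near the limit of detection. Of 24 genes, 15 had 0 counts in both libraries and none was measured, and the group had 23 counts in IRF8 cells and 35 in vector cells. Krt36 led with 9 and 17 counts, followed by Krt33b with 7 and 4, and the intervals of both ratios included 1. Krt90 and Krt222, which belong to none of these groups, had 7 and 6 counts in IRF8 cells and 0 in vector cells. The interval of a count of 0 in vector cells reached up to 0.212 CPM.

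**Figure D2:**
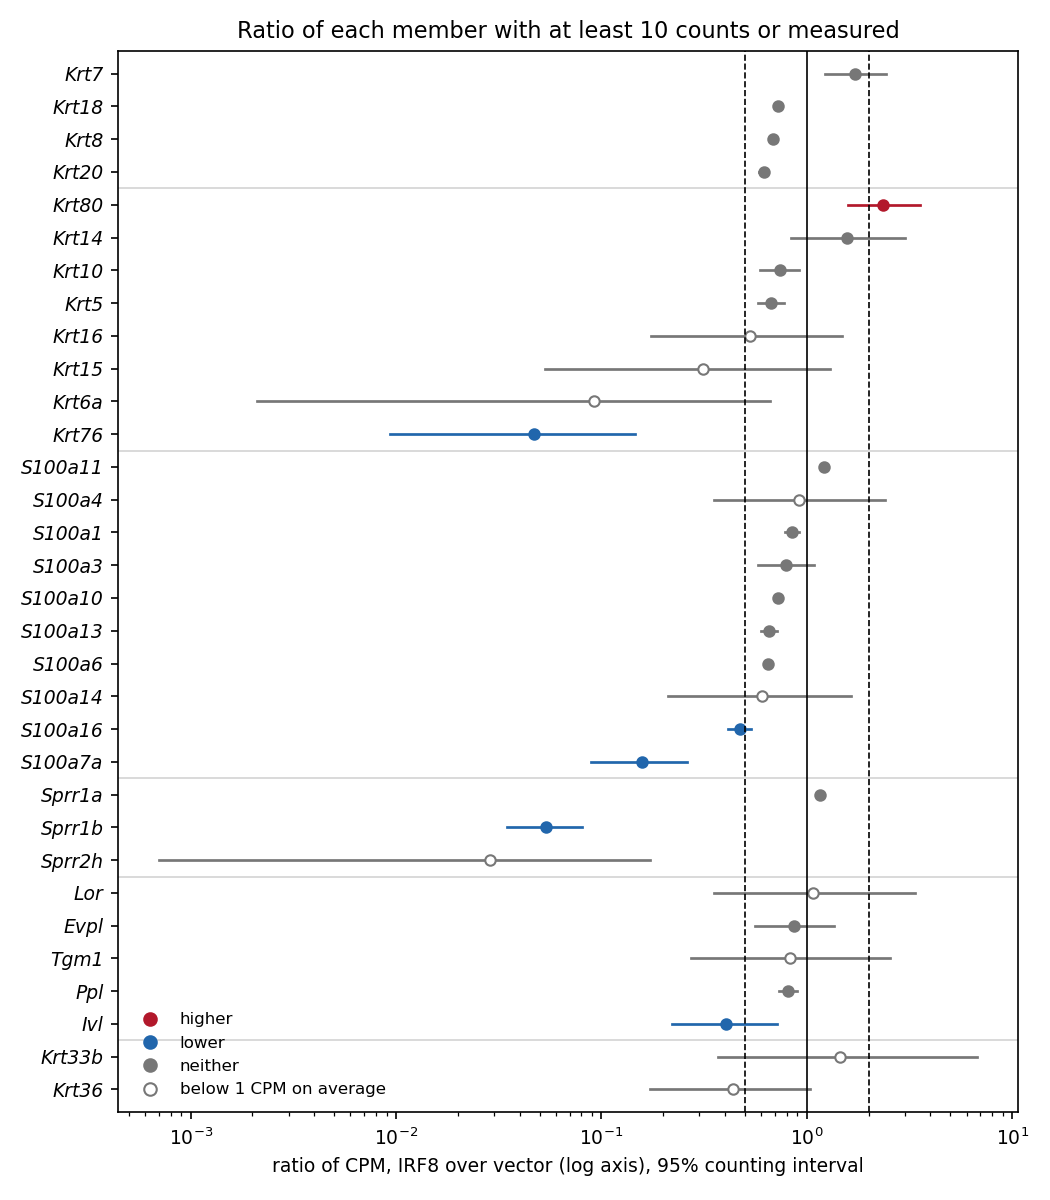
Ratio of CPM, IRF8 over vector, with its exact 95% counting interval on a log axis, for each gene that was measured or had at least 10 counts over both libraries and at least 1 in each, grouped from the top as simple keratins, squamous keratins, S100a, Sprr, envelope and hair keratins. Filled points were measured, open points lay below 1 CPM on average, and dashed lines mark 2-fold. Krt80 is the 1 gene called higher, and the 5 called lower are Krt76, S100a16, S100a7a, Sprr1b and Ivl.

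The S100a genes were among the most counted of the set, and S100a11 stood against the direction of its relatives. S100a10, S100a6 and S100a11 made up 93.8% of S100a counts in IRF8 cells and 92.8% in vector cells. S100a10, the partner of annexin A2 at the plasma membrane, had 13801 counts in IRF8 cells and 15899 in vector cells, or 660 and 916 CPM, a ratio of 0.721 (0.705 to 0.738). S100a6, or calcyclin, had 11255 and 14452 counts, or 538 CPM in IRF8 cells and 832 CPM in vector cells, a ratio of 0.647 (0.631 to 0.663). S100a11, which binds annexin A1, had 13049 and 8952 counts, or 624 CPM in IRF8 cells and 516 CPM in vector cells, a ratio of 1.21 (1.18 to 1.24). None of the 3 ratios reached 2-fold, and each interval excluded 1.

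The makeup of the S100a counts needs no scaling between libraries, but a share can rise only because others fall. Shares therefore do not show whether S100a11 itself rose. S100a1, with a ratio of 0.849, also took a larger share in IRF8 cells, 2.99% against 2.81% in vector cells. S100a11 took 32.1% of S100a counts (31.7% to 32.6%) in IRF8 cells and 21.1% (20.7% to 21.5%) in vector cells. S100a6 took 27.7% (27.3% to 28.1%) in IRF8 cells and 34.1% (33.7% to 34.6%) in vector cells, and S100a10 took 34.0% and 37.5%. Per kilobase of listed length S100a11 ranked first of the family in both libraries, at 1221 CPM in IRF8 cells and 1009 CPM in vector cells. This rank depends on the listed lengths, 511 bases for S100a11, 1212 for S100a10 and 1367 for S100a6. The longest annotated transcripts of S100a10 and S100a6 are shorter, at 685 and 783 bases, so the rank may not hold per transcript. Of the 32-base words of S100a11, 48.5% recur in other genes, above all the processed pseudogenes Gm12854 and Gm7665. Gm12854 had 338 counts in IRF8 cells and 153 in vector cells, and Gm7665 had 673 and 357, so part of the reads may lie on the wrong copy. With chromosome medians removed the ratio of S100a11 was 1.07, and it stayed above 1 under each alternative run.

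**Figure D3:**
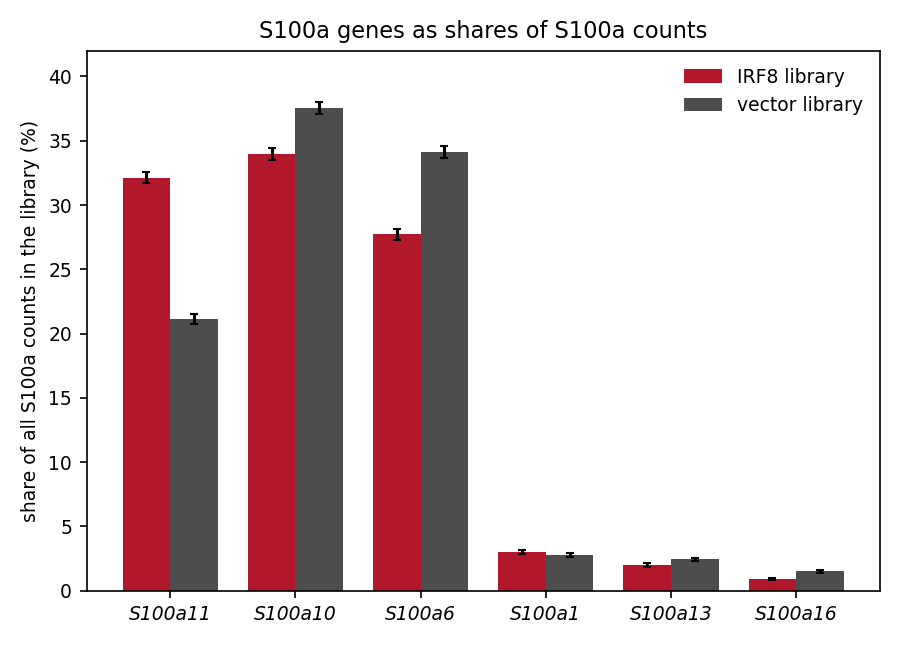
Share of all S100a counts taken by the 6 most counted S100a genes, in percent, IRF8 library (red) left of vector library (grey), with exact binomial 95% intervals. S100a11 took 32.1% in IRF8 cells and 21.1% in vector cells, while S100a10 and S100a6 took smaller shares in IRF8 cells.

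S100a7a and S100a16 were the S100a genes called lower. S100a7a, a mouse relative of psoriasin, which is known from inflamed skin, had 18 counts in IRF8 cells and 95 in vector cells, or 0.861 CPM (0.510 to 1.36) and 5.47 CPM (4.43 to 6.69). It was 6.36-fold lower (3.81 to 11.2). Its gene lies at chr3:90654017-90658669 and that of S100a16 at chr3:90537254-90543151, both on the plus strand of mm10. S100a16, a widely expressed member, had 360 counts in IRF8 cells and 634 in vector cells, or 17.2 CPM (15.5 to 19.1) and 36.5 CPM (33.7 to 39.5). It was 2.12-fold lower (1.86 to 2.42), and with scaling by total counts its ratio was 0.513, which ends the call. Among the 22 measured genes S100a16 and Krt80 lay just inside the 2-fold limit, and Krt7 and Krt20 just outside it. S100a13, which takes part in the export of FGF1 from cells, had 813 counts in IRF8 cells and 1029 in vector cells, a ratio of 0.656 (0.598 to 0.720). S100a1, best known from muscle, had 1215 counts in IRF8 cells and 1189 in vector cells, a ratio of 0.849 (0.783 to 0.920), and S100a3, a hair cuticle protein, had 84 and 88.

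S100 genes of leukocytes and fibroblasts were barely counted. S100a8 and S100a9, the calprotectin subunits of neutrophils, had 0 counts in IRF8 cells and 3 and 4 in vector cells. S100a4, known from fibroblasts and metastasis, had 11 counts in IRF8 cells and 10 in vector cells, with 58.0% of its words shared with an overlapping gene model. S100a14 had 8 and 11 counts, S100a2 had 1 and 6, and S100a5 had 0 in both. Of 14 myeloid markers 4 were measured, 1 of them lower, beside 3.56% lower over all measured protein-coding genes. The list summed to 43.9 CPM in IRF8 cells and 57.6 CPM in vector cells. Cd14, which is not called, supplied 30.4 CPM of that sum in IRF8 cells and 41.6 CPM in vector cells. Csf1r had 186 counts in IRF8 cells and 161 in vector cells, and Lyz2 had 57 and 41. The lower gene was Fcgr3, with 22 and 38 counts. Adgre1, Csf3r, Mpo and Tyrobp were at 0 in both libraries.

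The Sprr genes split between the abundant Sprr1a, which is not called, and its paralog Sprr1b, which was lower and close to 1 CPM in IRF8 cells. Sprr1a, an envelope precursor that is also induced by injury in mouse nerve and heart, had 27308 counts in IRF8 cells and 19607 in vector cells, or 1306 CPM (1290 to 1321) and 1129 CPM (1113 to 1145). Per kilobase of listed length it stood at 1620 CPM in IRF8 cells and 1401 CPM in vector cells, rank 13 and rank 19 of 22027 protein-coding genes and the highest of the whole set in IRF8 cells. Its ratio was 1.16 (1.14 to 1.18), under 2-fold. Sprr1b, its close relative about as long, had 26 counts in IRF8 cells and 400 in vector cells, or 1.24 CPM (0.812 to 1.82) and 23.0 CPM (20.8 to 25.4). It was 18.5-fold lower (12.5 to 28.7). Sprr1b lies at chr3:92436809-92438789 (mm10) and Sprr1a at chr3:92483952-92485895, both on the minus strand. Neither transcript shares a 32-base word with any other annotated gene, so reads of 1 gene can be told from the other over their whole length. Sprr1a made up 99.88% of Sprr counts in IRF8 cells and 97.79% in vector cells.

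The Sprr2 genes of the set, precursors encoded in a tandem array between Lor and Sprr1b, were not measured. The 11 of them had 8 counts in IRF8 cells and 43 in vector cells, a summed ratio of 0.155 (0.0627 to 0.332). Sprr2h made up most of that difference, with 1 count in IRF8 cells and 29 in vector cells, a ratio of 0.0286 (0.000701 to 0.173). It missed the measured set narrowly, at 0.0478 CPM in IRF8 cells and 1.67 CPM in vector cells. Sprr2k had 1 and 5 counts, Sprr2e 1 and 4, and Sprr2a1, Sprr2a2, Sprr2a3, Sprr2d and Sprr2f had 0 in both. Sprr3 and Sprr4, from the same cluster, had 1 count in all, in vector cells. Sprr2j-ps, which the table lists as protein-coding, had 4 counts in IRF8 cells and 3 in vector cells. Sprr2g, listed as a polymorphic pseudogene, is outside the set and the summed ratio. It was measured, with 23 counts in IRF8 cells and 25 in vector cells, a ratio of 0.764 (0.414 to 1.40). The low summed ratio thus describes the protein-coding Sprr2 genes alone.

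The upstream sequences of Sprr1b and Sprr1a are shown because Sprr1b was lower while the nearby Sprr1a, picked after its values were seen, had a ratio above 1, and that of Ivl because it was lower and holds the same motif. Each run gives the 250 bases before the RefSeq start site on the sense strand of GRCm38.p6, which is the mm10 assembly. Capitals mark matches to TGANTCA, searched on both strands, a pattern that covers the classical AP-1 (Fos and Jun) letters TGAGTCA and TGACTCA. The windows are chr3:92438780-92439029 for Sprr1b, chr3:92485882-92486131 for Sprr1a and chr3:92573736-92573985 for Ivl, all on the minus strand. The last 10 bases for Sprr1b and the last 14 for Sprr1a lie within the gene as the count table lists it.
Sprr1b: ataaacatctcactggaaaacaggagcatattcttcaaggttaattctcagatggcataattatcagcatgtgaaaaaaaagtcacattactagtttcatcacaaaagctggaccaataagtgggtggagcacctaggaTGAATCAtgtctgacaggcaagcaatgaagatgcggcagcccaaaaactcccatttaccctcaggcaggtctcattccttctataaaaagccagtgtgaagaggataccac
Sprr1a: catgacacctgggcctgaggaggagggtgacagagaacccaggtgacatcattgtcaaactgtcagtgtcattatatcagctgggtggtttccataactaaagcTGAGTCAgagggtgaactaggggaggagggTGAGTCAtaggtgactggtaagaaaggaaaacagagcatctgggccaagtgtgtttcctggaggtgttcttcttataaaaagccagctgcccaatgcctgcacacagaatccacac
Ivl: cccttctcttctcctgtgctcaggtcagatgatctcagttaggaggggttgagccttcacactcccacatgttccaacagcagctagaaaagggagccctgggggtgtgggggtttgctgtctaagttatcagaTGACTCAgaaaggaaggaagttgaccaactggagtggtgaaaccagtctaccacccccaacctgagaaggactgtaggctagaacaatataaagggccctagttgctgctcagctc

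Sprr1b holds 1 match, TGAATCA, beginning 111 bases before the start, whereas Sprr1a holds 2 matches of the form TGAGTCA, beginning 146 and 116 bases before it. Ivl holds TGACTCA, also beginning 116 bases before its start. The motif occurs in 6.75% of all 32851 RefSeq windows of this length and in 21.4% of the 70 windows of these genes, with 64 of the 88 genes having at least 1 window. Taking for each gene the window nearest its listed start, 13 of the 64 hold it, and 4 of the 18 measured genes: Sprr1b, Sprr1a, Ivl and S100a11. Among these 4, Sprr1b and Ivl were lower, and Sprr1a and S100a11 had ratios above 1. A match says only that the letters are there and is not evidence of a bound factor. TATAAA on the sense strand was found in 7.59% of all windows and in 42.9% of those of the set.

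The windows of S100a16 and Krt76, which were also lower, are printed for comparison and hold no TGANTCA. They are chr3:90537004-90537253 on the plus strand for S100a16 and chr15:101892921-101893170 on the minus strand for Krt76. The window of S100a7a is not printed, because its RefSeq start lies 285 bases inside the gene as the count table lists it, so that the window is not upstream of the counted gene. It holds no TGANTCA either. No RefSeq window was matched to Krt80. These runs hold no capitals.
S100a16: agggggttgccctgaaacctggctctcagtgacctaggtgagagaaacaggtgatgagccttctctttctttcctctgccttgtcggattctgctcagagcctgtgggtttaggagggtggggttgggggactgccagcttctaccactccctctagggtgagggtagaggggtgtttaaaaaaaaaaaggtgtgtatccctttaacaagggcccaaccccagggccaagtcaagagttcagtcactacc
Krt76: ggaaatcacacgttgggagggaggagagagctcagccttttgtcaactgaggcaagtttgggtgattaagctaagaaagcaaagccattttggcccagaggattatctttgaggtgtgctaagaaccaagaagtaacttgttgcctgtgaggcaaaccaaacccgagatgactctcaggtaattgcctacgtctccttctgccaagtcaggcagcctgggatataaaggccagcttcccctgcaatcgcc

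**Figure D4:**
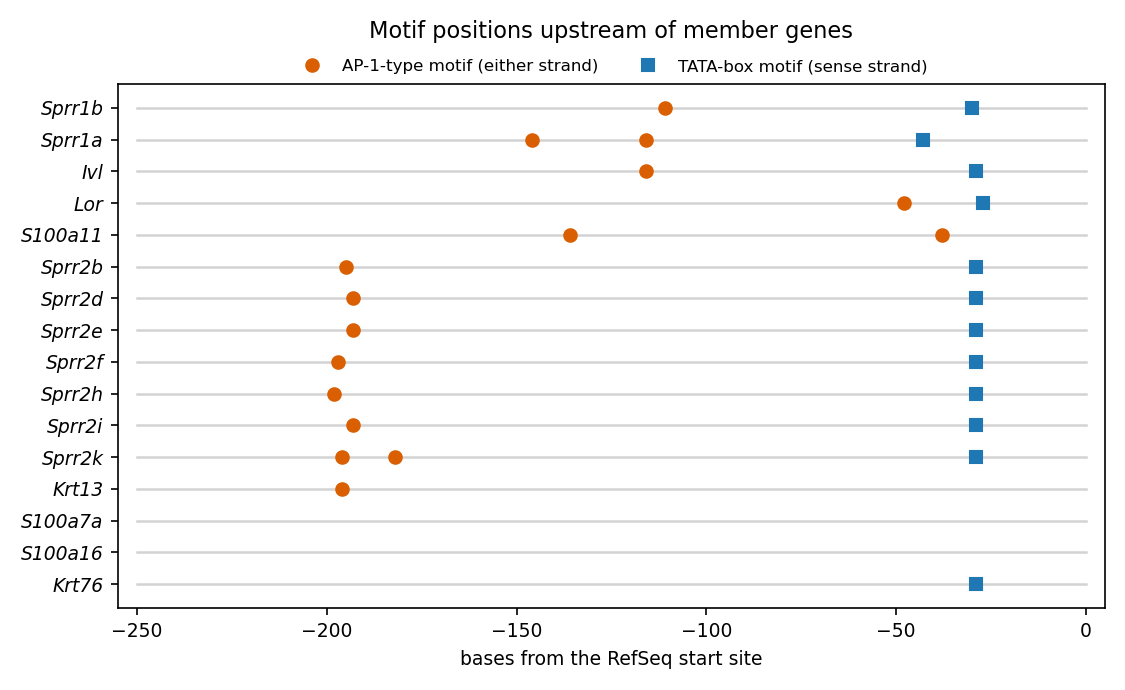
Positions of the AP-1-type motif TGANTCA (orange circles, either strand) and of TATAAA (blue squares, sense strand) in the 250 bases before the RefSeq start. The window nearest each listed start is used. Shown are the 13 genes that hold the first motif there, with S100a7a, S100a16 and Krt76. The x axis is the distance in bases from the start to the first base of each match. Sprr1b, Sprr1a and Ivl hold a match 111 to 116 bases before the start, and 6 of the 7 Sprr2 genes shown hold a single one between 193 and 198 bases before it.

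The remaining envelope genes were low apart from the plakin Ppl. Ivl, or involucrin, an early scaffold of the envelope, had 19 counts in IRF8 cells and 39 in vector cells at chr3:92570902-92573735, or 0.909 CPM (0.547 to 1.42) and 2.25 CPM (1.60 to 3.07). It was 2.47-fold lower (1.39 to 4.53), and the call ended with a wider interval, which reached 1.02, and with 1 added to each CPM, which gave a ratio of 0.588. Ppl, or periplakin, which links keratin filaments to desmosomes, had 763 counts in IRF8 cells and 786 in vector cells, a ratio of 0.806 (0.729 to 0.892). Its chromosome, 16, had a median log2 ratio of -0.35 over 348 measured protein-coding genes, and with that median removed the ratio of Ppl was 1.03. Evpl, or envoplakin, its binding partner, had 44 and 42 counts, a ratio of 0.870 (0.557 to 1.36). Lor, which encodes the main protein of the mature envelope, had 9 counts in IRF8 cells and 7 in vector cells, and Tgm1, the membrane-bound cross-linking enzyme, had 8 in each. Differences in Lor and Tgm1 were not detectable at this depth.

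Genes that work with this set were counted from lists drawn up by function, beside 3.56% lower and 3.28% higher over all measured protein-coding genes. Of 17 desmosome genes, which anchor keratin filaments at cell junctions, 11 were measured and 0 were higher or lower, with a median log2 ratio of -0.25. Jup, or plakoglobin, had a ratio of 0.680 (0.646 to 0.716), Plec, or plectin, 0.613 (0.597 to 0.629) and Dsg2, the desmoglein of simple epithelia, 1.27 (1.17 to 1.37). Of 35 other genes of epidermal differentiation, 11 were measured, 2 were lower and 0 higher (median -0.40). The lower genes were Cdsn, or corneodesmosin, with 36 counts in IRF8 cells and 143 in vector cells, 4.78-fold lower (3.30 to 7.10), and Sbsn, or suprabasin, with 67 and 136, at a ratio of 0.409 (0.301 to 0.552). Flg, Rptn and Casp14 were among 12 genes of that list at 0 in both libraries. Among 15 genes for S100 partners and relatives, 11 were measured and 0 passed the rule (median 0.05). Anxa2, the partner of S100a10, had 837 CPM in IRF8 cells and 1104 CPM in vector cells, a ratio of 0.758 (0.743 to 0.774), beside 0.721 for S100a10 itself.

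Of a list of 28 regulators of squamous differentiation, 18 were measured, with 6 lower, 0 higher and a median log2 ratio of -0.80 over the measured genes. Over all measured protein-coding genes 3.56% were lower and 3.28% higher. The list of regulators includes AP-1 and C/EBP genes already known to be low in these data, so its direction is not independent of earlier results. Cebpb had 1033 counts in IRF8 cells and 4446 in vector cells, 5.18-fold lower (4.84 to 5.55). Klf4, a barrier regulator of the epidermis, had 952 counts in IRF8 cells and 2937 in vector cells, 3.71-fold lower, and Jun and Junb had ratios of 0.301 (0.274 to 0.330) and 0.368 (0.359 to 0.377). Fosl1 and Vdr were also lower, at 0.433 and 0.438. Trp63, the master regulator of stratified epithelium, had 1 count in IRF8 cells and 0 in vector cells. Of 10 keratinocyte markers 6 were measured and none was called, with a median log2 ratio of -0.35. The list summed to 457 CPM in IRF8 cells and 586 CPM in vector cells. Itga6 had 5489 counts in IRF8 cells and 5133 in vector cells, Perp 2777 and 3325, and Itgb4 882 and 1244. Pkp1 had 29 and 24 counts and Col17a1 3 and 4, while Dsg3 and Dsc3 had at most 2 in either library. The part of the listed regulators in the ratios of the keratin, S100a and Sprr genes was not tested.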

How the data were processed

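The table deposited by the authors gives raw read counts per gene for 1 RNA-seq library of each line, without normalization. Per the submitters' processing notes, reads were handled with HISAT2 2.0.5 and featureCounts 1.5.0-p3 on mm10. The sources used here do not give the strand setting, the annotation release or the treatment of reads with several matches. The gene length, another deposited column, was used for levels per kilobase. Samples were grouped by the lentivirus in the labels, and columns were matched by name.

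TMM factors came from edgeR 4.0.16 in R 4.3.3, and other steps used Python 3.11.15, numpy 2.4.6, scipy 1.17.1, pandas 2.3.3, statsmodels 0.14.6 and matplotlib 3.10.9. With 1 library per group edgeR's quasi-likelihood test could not be run, and the size rule was applied to the whole table. Ratio intervals are Clopper-Pearson on the split of counts between libraries, level intervals are exact Poisson and share intervals exact binomial. They cover counting error only, and PCR copies may make them too narrow. The rule was tested on simulated counts that held counting error alone and changes larger than the 2-fold limit. That test does not cover variation between replicate libraries.

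Genes past the size rule and those with at least 10 counts were named by rule, with others added after their values were seen. Members and lists were chosen with earlier results of these data known. Shared 32-base words were found in GENCODE M21 transcripts, on both strands. All 88 genes were in that annotation, 67 with the same coordinates. Coordinates of windows and promoter sequences are RefSeq's on GRCm38.p6. Alternatives were other scalings (including DESeq2 1.42.0 size factors), filters, folds and intervals, and trends removed.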

Additional observations from a re-analysis of the deposited data

How the results depend on the processing

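With 1 library per group nothing could be left out. No paired analysis was possible because each group has 1 library and the labels give no replicate numbers. Against 1 gene higher and 5 lower, 2 were higher and 8 lower with no expression filter, with 3 squamous keratins lower instead of 1. A filter at 5 CPM left 0 higher and 2 lower, with 0 squamous keratins. A fold of 1.5 gave 2 higher and 8 lower, with 1 simple keratin lower instead of 0, and a fold of 4 gave 0 and 3. With 1 added to each CPM 0 were higher, and with chromosome medians removed 2 were. Members with under 5% shared words gave 0 higher and 3 lower, with 0 squamous keratins. The share of simple keratins was 99.19% in IRF8 cells and 99.23% in vector cells per kilobase, and 99.03% and 99.10% among measured keratins. Scaling by total counts moved the median log2 ratio of all measured genes to 0.13, against 0.01 with TMM. Under it 66.1% of called genes were higher, against 54.0% with TMM. Over 13 alternatives, 361 of 407 ratios of 33 genes stayed within their interval or kept their call, 31 moved beyond it, 7 lost a call and 8 gained one, and 0 called genes changed direction. Ratios of Lor and Ppl, neither of them called, crossed 1 with chromosome medians removed, and that of Lor also with the expression trend removed. Counts under about 10 per library limit what can be said of Krt19, Krt6a, Tgm1 and Lor.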

Other observations

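Other protein-coding genes lie among the members in the epidermal differentiation complex. Between the outermost S100a and Sprr members on chromosome 3 there are 44 of them, of which 4 were measured, and Lce1g and Lce1h, 2 late cornified envelope genes, differed in opposite directions. Lce1g had 69 counts in IRF8 cells and 175 in vector cells, a ratio of 0.327 (0.244 to 0.435). Lce1h had 197 counts in IRF8 cells and 76 in vector cells, a ratio of 2.15 (1.64 to 2.84). Tchh, or trichohyalin, had a ratio of 1.18 (0.831 to 1.69). As with Sprr1a and Sprr1b, 1 gene of this related pair had a ratio above 1 and the other was lower. The median log2 ratio over 540 measured protein-coding genes of chromosome 3 was 0.17. These neighbours were named after their values were seen.

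Of 16 intermediate filament genes outside the keratins, 7 were measured, 0 were higher and 1 was lower, beside 3.56% lower over all measured protein-coding genes. The lower gene, Bfsp1 of the lens, had 12 counts in IRF8 cells and 25 in vector cells. Vim, the filament gene of mesenchymal cells, had 139 CPM in IRF8 cells and 169 CPM in vector cells, a ratio of 0.823 (0.782 to 0.867). The lamin genes had ratios on either side of 1 without passing the rule, 0.721 (0.704 to 0.739) for Lmna and 1.35 (1.29 to 1.40) for Lmnb1. The Krt8 pseudogene Krt8-ps, with which Krt8 shares 31.8% of its 32-base words, had 232 counts in IRF8 cells and 117 in vector cells, a ratio of 1.65 (1.31 to 2.07), opposite in direction to Krt8.

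Markers of other cell types did not share a direction, and are set beside 3.56% lower and 3.28% higher over all measured protein-coding genes. Of 11 cholangiocyte markers 6 were measured, 2 lower (Cldn4 and Sox9) and 0 higher, and their summed level was 618 CPM in IRF8 cells and 940 CPM in vector cells. Of 10 fibroblast and stellate markers 5 were measured, with Col1a1 and Rgs5 higher and 0 lower. Their summed level was 927 CPM in IRF8 cells and 819 CPM in vector cells. Dcn alone supplied 904 CPM of it in IRF8 cells and 800 CPM in vector cells, and Pdgfra had a ratio of 0.743 (0.609 to 0.905). Their part in the ratios of the keratin and S100a genes was not tested.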
